A study of Rattus norvegicus with 6 samples.

Results

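The CAP superfamily joins secreted and membrane-associated proteins that share a cysteine-rich fold, named after cysteine-rich secretory proteins, venom antigens and pathogenesis-related proteins of plants. Its mammalian members are known from the extracellular matrix, from connective tissue and from the male reproductive tract, and some were first isolated as inhibitors of trypsin-like proteases. In arteries Pi16 marks a class of fibroblasts of the outer wall, the adventitia, and Pi15 has been discussed as a candidate gene for ruptures of the elastic laminae of the rat aorta. The genes followed here are Pi15, Crispld1, Pi16, Crispld2, Glipr1 and Glipr2, which are 6 of the 18166 genes that the array names. Each was measured by 1 probe set, a group of short probes that reports 1 level per array, and all 6 lay above the filter on dim probe sets. They were chosen by membership of the family, after the lower level of Pi15 in the hypertensive strain had been seen. The strain differences of these genes are therefore given as a description, and nothing is rested on them.

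The thoracic aortae came from rats aged 24 weeks, of the strain SHR, the spontaneously hypertensive rat, and of the strain WKY, the Wistar-Kyoto rat, whose blood pressure is normal. The rats had no treatment apart from a measurement of tail blood pressure, and the vessels had been cleaned of fat and connective tissue before freezing, per the labels. Each strain had 3 Affymetrix Rat Gene 2.0 ST arrays. The labels do not say that each array held another animal, so the errors given here may be technical and measure only how far these samples lie apart.

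Levels are log2 values, on which a step of 1 is a 2-fold change of signal, and levels of different genes cannot be set against each other because their probes differ. A place above or below the array median is for the same reason only a rough guide. The array medians ran from 2.29 to 2.52, and all 6 genes lay above them on every array. Smooth muscle markers, by which an aorta can be recognised, had a mean level between 9.16 and 9.49 over 8 measured genes of the list, above every array median. The means of lymphocyte markers, 1.47 to 1.73, and of mesothelial markers, 1.50 to 1.91, lay below every array median. White adipocyte markers varied far more, from 4.24 to 7.54 on the SHR arrays and from 6.05 to 7.49 on the WKY arrays. WKY replicate 3 stood apart from the other arrays, with the highest median and a fitted array weight of 0.22 against 0.69 to 2.05 for the others. SHR replicate 1 had the next lowest weight, 0.69, and the lowest correlation, 0.961, was between these 2 arrays. The mean of Schwann cell and nerve markers was 5.21 on SHR replicate 1 and between 2.66 and 3.14 on the other arrays. One alternative in the closing section leaves out these 2 arrays together.

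Of the 6 genes, 4 had arrays of the strains that did not overlap, a state that 12.1% of all 21659 tested probe sets reached. Pi15, Pi16 and Crispld2 were the 3 that lay lower in SHR, where the share over the table was 5.61%, and Crispld1 was the 1 that lay higher, where it was 6.48%. Pi15 and Pi16 were lower by more than 1 log2 unit, as were 0.379% of all tested probe sets. None of the 6 was called by limma at an adjusted p under 0.05, against 0.0693% of all probe sets, and 4 of the 6 had an unadjusted p under 0.05, against 5.55%. Since the family was taken up because of this contrast, nothing is read from these counts.

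**Figure D1:**
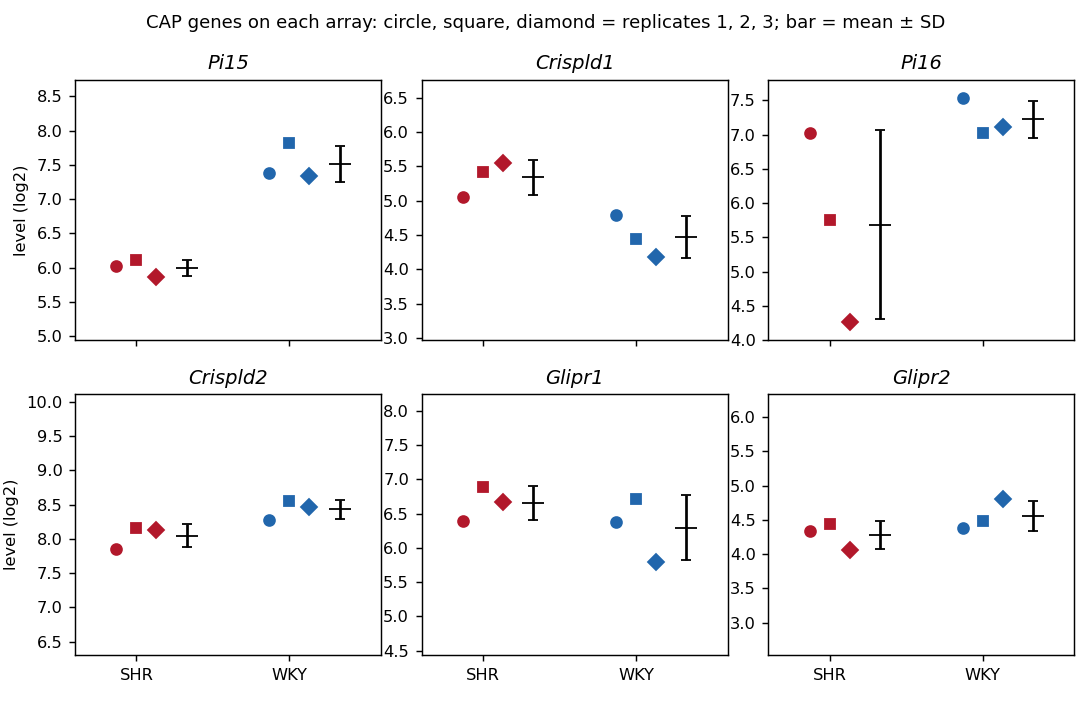
Level of each gene (log2, vertical axis) on the 3 SHR arrays (red) and the 3 WKY arrays (blue), with the mean ± SD of each strain as a black bar. Every panel spans the same number of log2 units, so distances but not heights can be compared between genes. Pi15 shows a gap of 1.23 between the strains, and Pi16 shows SHR arrays spread over 2.76.

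Pi15 encodes a secreted protein first found as a trypsin inhibitor of glioma cells. Its level was 6.02, 6.11 and 5.87 on SHR replicates 1, 2 and 3 and 7.38, 7.82 and 7.34 on WKY replicates 1, 2 and 3. All SHR arrays lay below all WKY arrays, and the gap between the highest SHR and the lowest WKY array was 1.23. The SHR arrays lay close together, at 6.00 ± 0.12 (SD, n = 3), and the WKY arrays were at 7.51 ± 0.27. The difference, SHR minus WKY, was -1.52 ± 0.18 (SE) on the log2 scale, with a 95% interval from -1.93 to -1.10, and corresponds to a 2.86-fold lower signal in SHR. Only 15 probe sets of the table had a smaller p, and Pi15 was the first beyond the line of calls: Mettl24 was the last called and Rxfp2 the second not called. In bulk tissue such as this, fewer cells of a type and less RNA per cell cannot be told apart.

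Of the 10 lists of cell type markers, 0 had a mean whose arrays were apart between the strains, as those of Pi15 were. Smooth muscle markers had a mean of 9.34 in SHR and 9.40 in WKY, and the median difference of the 8 tested markers was -0.08, with 0 of them called. General fibroblast markers had a mean of 9.19 in SHR and 9.33 in WKY, with a median difference of -0.07 over 9 genes. Other lists lay lower in SHR. The median difference was -0.71 for white adipocyte markers, with 10 of 10 means lower, and -0.81 for brown adipocyte markers, with 5 of 6 lower. It was -0.55 for endothelial markers, with 6 of 7 lower, and -0.34 for skeletal and cardiac muscle markers, with 7 of 9 lower. Macrophage markers were at -0.15, with 7 of 10 lower, and mesothelial markers at -0.002, with 4 of 7 lower. On the other side were Schwann cell and nerve markers, at 0.52 with 2 of 6 lower, and lymphocyte markers, at 0.10 with 1 of 8 lower. Over all tested probe sets, 11257 of 21659 were lower. Genes of a list can vary together, so these counts are not independent. Of the skeletal and cardiac muscle markers 4 of 9 were lower in SHR without overlap, against 5.61% of all tested probe sets, and their mean was 3.05 to 3.19 on the SHR arrays and 3.07 to 3.72 on the WKY arrays. The part of these lists in the difference of Pi15 was not tested. The brown adipocyte, endothelial and skeletal and cardiac muscle means entered no fit. The fits that follow cannot show what these lists contribute. The difference of Pi15 was -1.51 when the white adipocyte mean entered the fit, -1.53 with the smooth muscle mean and -1.47 with the general fibroblast mean. Leaving out each array in turn moved it between -1.60 and -1.36.

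Crispld1 encodes a secreted protein with a CAP domain followed by LCCL domains, and its function in arteries is little known. It is the next gene to Pi15 on rat chromosome 5 in RefSeq's order (assembly GRCr8), with 0 genes between. Its level was 5.06, 5.42 and 5.55 on SHR replicates 1, 2 and 3 and 4.79, 4.44 and 4.18 on WKY replicates 1, 2 and 3. The lowest SHR array was 0.27 above the highest WKY array, so the 2 strains were apart in the direction opposite to that of Pi15. The means were 5.34 ± 0.26 (SD, n = 3) and 4.47 ± 0.30. The difference was 0.87 ± 0.21 (SE) on the log2 scale, with a 95% interval from 0.38 to 1.37, or a 1.83-fold higher signal in SHR. It ran from 0.73 without WKY replicate 3 to 1.03 without WKY replicate 1.

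On the far side of Pi15 the nearest named and measured genes were Gdap1, a mitochondrial outer membrane protein, and Jph1, a junctophilin that ties the plasma membrane to the endoplasmic reticulum. Gdap1 lay at 1.52 ± 0.65 (SD, n = 3) in SHR and 1.13 ± 0.18 in WKY, below the array medians in both strains, and was highest on SHR replicate 1, at 2.26. Jph1 lay at 3.61 ± 0.18 and 3.37 ± 0.28, with arrays that overlapped. No named and measured gene precedes Crispld1 on the chromosome. In the whole table, 6988 pairs of next-door genes had both members tested, and in 49 of them, 0.701%, 1 gene was higher and the other lower in SHR with no overlap between the strains. In 67 pairs, 0.959%, both were apart in the same direction. Pi15 and Crispld1 are 1 of the 49 pairs and were known to differ in this way when the pairs were counted.

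**Figure D2:**
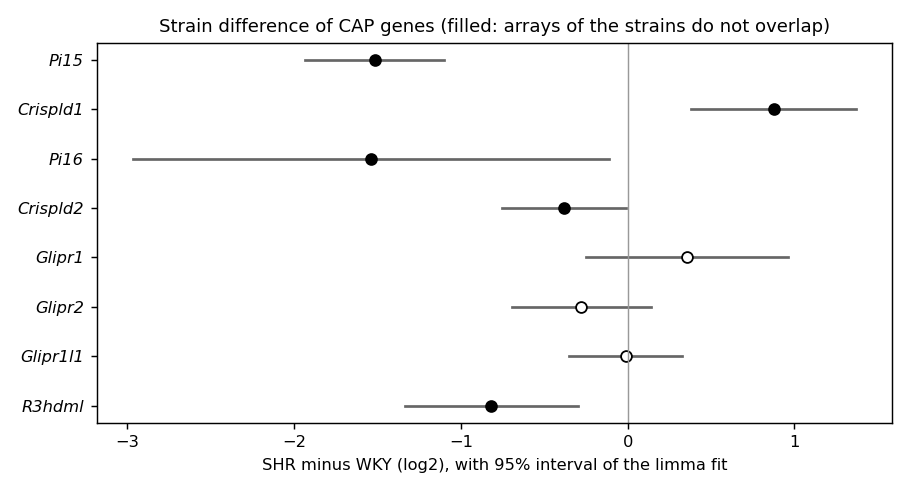
Difference between the strains (SHR minus WKY, log2, horizontal axis) of the 6 genes and of Glipr1l1 and R3hdml, the other tested members of the family, with the 95% interval of the limma fit as a line. Filled points mark genes whose arrays do not overlap between the strains. Pi15 at -1.52 has a short interval, Pi16 at -1.54 a long one from -2.97 to -0.11, and Crispld1 at 0.87 lies on the other side of 0.

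Pi16 encodes a CAP protein with a long carboxy-terminal tail, known as an inhibitor of the growth of heart muscle cells and as a marker of fibroblasts found in the adventitia of many organs. Its level was 7.02, 5.76 and 4.27 on SHR replicates 1, 2 and 3 and 7.53, 7.03 and 7.10 on WKY replicates 1, 2 and 3. The strains did not overlap, but SHR replicate 1 lay only 0.0040 below WKY replicate 2, and with each array centred on its median they did overlap. SHR replicate 3 was far below the rest. The means were 5.68 ± 1.38 (SD, n = 3) and 7.22 ± 0.27. An SD within SHR at least as large was seen for only 0.734% of tested probe sets, while the SD within WKY was matched or passed by 43.5%.

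The difference of Pi16 was -1.54 ± 0.61 (SE), or 2.91-fold lower in SHR, close to that of Pi15 in size but with an SE that was over 3 times as large. It was -0.83 without SHR replicate 3 and -2.21 without SHR replicate 1, so that the size of the difference rested on which SHR arrays were kept. It was -2.27 without both SHR replicate 1 and WKY replicate 3.

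Markers of several cell types moved with Pi16 among the SHR arrays. Averaged over the 10 white adipocyte markers, all of them measured, the level was 7.54, 5.83 and 4.24 on SHR replicates 1, 2 and 3 and 7.49, 6.05 and 6.18 on WKY replicates 1, 2 and 3. The 7 endothelial markers had means of 6.19, 4.89 and 4.35 in SHR and 6.10, 5.53 and 5.38 in WKY, and the 10 macrophage markers 6.08, 4.66 and 3.79 in SHR and 5.44, 4.51 and 4.62 in WKY. In all, 7 of 10 marker lists were highest on SHR replicate 1 and lowest on SHR replicate 3 among the SHR arrays, as Pi16 was. They include the lymphocyte list, below the array medians, with means of only 1.73, 1.62 and 1.56 in SHR. The Schwann cell and nerve list, at 5.21, 2.81 and 2.66, was mainly high on SHR replicate 1. Among all tested probe sets 18.8% had this order, and 101 of them, 0.466%, had it with a range at least as wide as that of Pi16. These shares are of single probe sets and cannot be set against the count of list means. Smooth muscle markers ran the other way in SHR, at 9.16, 9.37 and 9.49. The difference of Pi16 was -1.02 ± 0.23 (SE) when the white adipocyte mean entered the fit. It was -1.05 ± 0.24 with the general fibroblast mean and -1.97 ± 0.28 with the smooth muscle mean. These fits rest on few arrays, and the white adipocyte mean itself lay at 5.87 in SHR and 6.57 in WKY. They cannot show what the lists contribute, and the part of the lists in the difference of Pi16 was not tested.

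**Figure D3:**
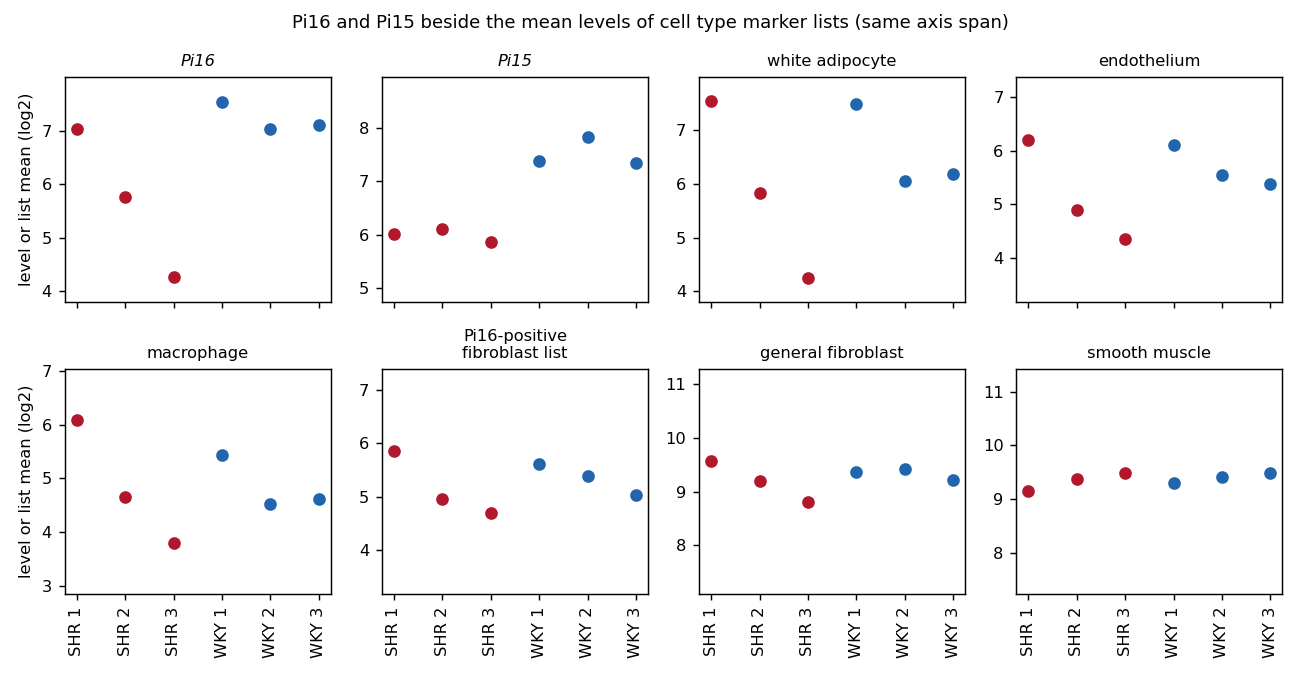
Level of Pi16 and Pi15 and mean level of 6 gene lists (log2, vertical axis) on each array, SHR in red and WKY in blue, with the same axis span in every panel. On SHR replicates 1 and 3 Pi16 lies at 7.02 and 4.27 and the white adipocyte mean at 7.54 and 4.24, while Pi15 stays between 5.87 and 6.11 on the SHR arrays.

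Genes known from Pi16-positive fibroblasts of the adventitia were followed as a list that leaves out Pi16 itself. Of 18 listed genes 15 were measured and tested, and 0 were called by limma, against 0.0693% of all probe sets. At an unadjusted p under 0.05 there were 2, 1 lower and 1 higher in SHR, against 5.55%. Of the 15 means, 12 were lower in SHR, against 11257 of 21659 over all tested probe sets. Their mean was 5.86, 4.96 and 4.70 on SHR replicates 1, 2 and 3 and 5.60, 5.39 and 5.02 on WKY replicates 1, 2 and 3, so the strains overlapped. The median difference was -0.25, against -0.01 over all tested probe sets. Limch1, an actin-binding regulator of myosin, lay at 5.46 ± 0.16 (SD, n = 3) in SHR and 6.13 ± 0.09 in WKY without overlap. Cd248, a surface protein of perivascular fibroblasts, lay at 5.51, 4.98 and 4.52 in SHR and 5.85, 5.51 and 5.36 in WKY, and the ligand gene Wnt2, near the array medians, at 2.43 ± 0.06 and 2.67 ± 0.18. Has1, which makes hyaluronan, lay on the other side, at 2.24 ± 0.71 and 1.37 ± 0.12, with both means below every array median. On SHR replicate 1 it was at 3.03, above the medians.

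Around Pi16 on chromosome 20 no neighbour had its pattern. C20h6orf89 and Ppil1, the nearest named genes on the near side, differed by 0.23 and 0.26. Mtch1, a mitochondrial carrier homologue, and Fgd2, an exchange factor for Cdc42, differed by -0.05 and -0.11. The arrays of Ppil1 did not overlap, at 3.35 to 3.50 in SHR and 2.99 to 3.30 in WKY, and those of the other 3 did.

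Crispld2 encodes a secreted CAP protein with LCCL domains that is made by mesenchymal cells, binds bacterial lipopolysaccharide and is induced by glucocorticoids in lung. Its level was 7.86, 8.15 and 8.13 on SHR replicates 1, 2 and 3 and 8.27, 8.56 and 8.46 on WKY replicates 1, 2 and 3. The strains were apart by 0.12, a narrow gap beside the within-strain ranges of 0.30 and 0.29. The means were 8.05 ± 0.17 (SD, n = 3) and 8.43 ± 0.14. The difference was -0.38 ± 0.16 (SE), or 1.30-fold lower in SHR, with a 95% interval from -0.75 to -0.01, and it stayed between -0.46 and -0.29 whichever array was left out. On chromosome 19 its neighbours Usp10, a ubiquitin hydrolase, and Zdhhc7, a palmitoyltransferase, differed by 0.32 and -0.08 and overlapped between the strains, as did Klhl36 (-0.03) and 6430548M08Rikl (0.17).

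Glipr1 and Glipr2 were the members whose strains overlapped. Glipr1, a membrane-associated protein first described in glioma and a target gene of p53, lay at 6.40, 6.89 and 6.67 on SHR replicates 1, 2 and 3 and at 6.38, 6.72 and 5.79 on WKY replicates 1, 2 and 3. WKY replicate 3 was its lowest array. The difference was 0.36 ± 0.26 (SE), with a 95% interval from -0.25 to 0.96, and it was 0.10 without WKY replicate 3 and 0.57 without WKY replicate 2. Glipr2, which lacks a signal peptide and sits on the cytosolic face of Golgi membranes, lay at 4.34, 4.44 and 4.06 in SHR and 4.39, 4.48 and 4.80 in WKY, in the same order of replicates. SHR replicate 3 was its lowest array and WKY replicate 3 its highest. Its difference was -0.28 ± 0.18 (SE), with a 95% interval from -0.70 to 0.14, and it was -0.17 without SHR replicate 3 and -0.15 without WKY replicate 3. Both intervals include 0.

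Near Glipr1 on chromosome 7, Krr1, a factor of ribosome assembly, lay on 1 side with a difference of 0.28, and Glipr1l1 and Caps2 on the other at levels between 0.82 and 1.30. Phlda1, a pleckstrin homology domain protein with 6 RefSeq genes between it and Glipr1, lay at 3.30, 3.81 and 3.63 in SHR and 2.65, 2.62 and 2.81 in WKY, without overlap. Its difference was 0.89 ± 0.17 (SE; limma adjusted p = 0.308). Beside Glipr2 on chromosome 5, Reck, a membrane-anchored inhibitor of matrix metalloproteinases, differed by 0.27 and Clta, a clathrin light chain, by -0.15, with overlapping strains. Or13c7 and Ccin, a cytoskeletal gene of sperm, lay at or below 1.18 on all arrays.

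Of 9 other CAP genes listed, 5 were measured. R3hdml, a predicted secreted relative of Pi15 and Pi16, lay at 2.22, 3.06 and 2.69 on SHR replicates 1, 2 and 3 and at 3.47, 3.44 and 3.52 on WKY replicates 1, 2 and 3. All SHR arrays were below all WKY arrays, and SHR replicate 1 lay below its own array's median. The difference was -0.82 ± 0.22 (SE; limma adjusted p = 0.577). Glipr1l1, a gene of the testis, lay between 1.04 and 1.30, and Crisp1, Crisp2 and Crisp3 between 0.58 and 1.16 on every array, below the array medians. Crisp1, Crisp2 and Crisp3 did not pass the filter on dim probe sets and were not tested.

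Since Pi15 and Pi16 are named as peptidase inhibitors, secreted inhibitors of serine proteases and trypsin-like proteases were followed as well. Of 18 measured inhibitors 17 were tested, and 0 were called by limma, against 0.0693% of all probe sets. At an unadjusted p under 0.05 there were 3, 1 lower and 2 higher in SHR, against 5.55%, and the same numbers, 1 and 2, were lower and higher without overlap, against 5.61% and 6.48%. The median difference was 0.08. Serpina3n, an inhibitor of chymotrypsin-like proteases induced in inflammation, lay at 6.85 ± 0.57 (SD, n = 3) in SHR and 5.79 ± 0.27 in WKY, and Serping1, the inhibitor of complement C1, at 7.90 ± 0.49 and 7.16 ± 0.34, both without overlap. Serpinc1, antithrombin, lay at 1.52 ± 0.13 and 1.92 ± 0.17, without overlap and below the array medians. Tfpi, the inhibitor of the tissue factor pathway, lay at 4.87 ± 0.31 and 3.63 ± 1.30, with a level of 2.17 on WKY replicate 3.

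The list of trypsin-like proteases also holds F3, tissue factor, a cofactor that is not itself a protease. Of its 25 measured genes 23 were tested, and 0 were called by limma, against 0.0693% of all probe sets. At an unadjusted p under 0.05 there were 3, 1 lower and 2 higher, against 5.55%, and 3 were higher and 0 lower without overlap, against 6.48% and 5.61%. The median difference was -0.04. Prss23, a protease secreted in the vessel wall, lay at 9.41 ± 0.05 (SD, n = 3) in SHR and 8.79 ± 0.18 in WKY, and the complement protease C1r at 9.16 ± 0.12 and 8.44 ± 0.29, both without overlap. Masp1, a protease of the lectin pathway of complement, lay at 3.01 ± 0.20 and 2.67 ± 0.14, also without overlap, and Htra4 at 2.17 ± 0.29 and 2.62 ± 0.15.

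The pattern of Pi15 over the 6 arrays was set against those of the other 15280 named and tested genes, with each gene centred on its own mean. The measure was the root mean square distance on the log2 scale, which was 0.78 between Pi15 and a gene without any variation. The nearest were Kcnip3, a calcium-binding partner of potassium channels (0.24), Agtr1b, a receptor of angiotensin II (0.26), Igfbp2, a binding protein of insulin-like growth factors (0.27), Selenbp1, a selenium-binding protein (0.29), and Ndufv3, a subunit of respiratory complex I (0.30). All 5 were lower on every SHR array than on any WKY array, which the choice of a pattern like that of Pi15 entails. Kcnip3 was at 4.70, 5.43 and 4.98 in SHR and 6.53, 6.89 and 6.00 in WKY. Like Pi15, it was highest on WKY replicate 2.

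For Pi16 the nearest patterns lay at larger distances, but its range was also wider. The distance to a gene without variation was 1.12, against 0.78 for Pi15. They were Efemp1, the elastic fibre protein fibulin-3 (0.38), Clic5, an intracellular chloride channel protein (0.39), Anpep, the surface aminopeptidase CD13 (0.39), Pkhd1l1, a large fibrocystin-like membrane protein (0.40), and Cebpa, a transcription factor of adipocytes and myeloid cells (0.43). Efemp1 was at 7.03, 5.37 and 4.02 on SHR replicates 1, 2 and 3 and at 6.98, 6.39 and 5.91 on WKY replicates 1, 2 and 3, so its strains overlapped, as did those of Clic5, Anpep and Cebpa. Pkhd1l1 was at 4.52, 3.74 and 3.02 in SHR and 5.66, 5.14 and 4.74 in WKY, without overlap. Among the 14 gene lists, the mean of white adipocyte markers was nearest to Pi16, at 0.54, followed by endothelial markers at 0.60 and brown adipocyte markers at 0.63. The list of genes of Pi16-positive fibroblasts was at 0.85. The distance depends on how widely a mean varied as well as on its order over the arrays. The white adipocyte mean ran from 4.24 to 7.54 and that of the Pi16-positive fibroblast list from 4.70 to 5.86. Whether Pi16 follows 1 list more than another was not tested.

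**Figure D4:**
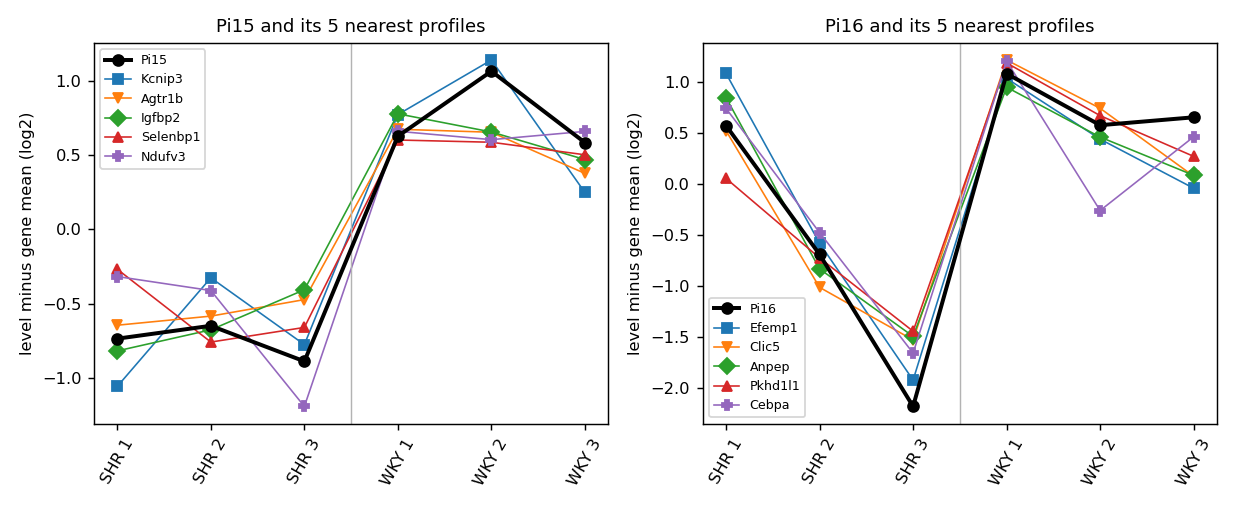
Level minus the gene's own mean (log2, vertical axis) on each of the 6 arrays for Pi15 (left, black) and Pi16 (right, black) with the 5 named genes of the smallest distance to each. On the left the genes step up between the strains, from Kcnip3 at a distance of 0.24 to Ndufv3 at 0.30; on the right they are also lowest on SHR replicate 3, from Efemp1 at 0.38 to Cebpa at 0.43.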

How the data were processed

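The authors deposited log2 values. Per the submitters' processing notes these come from the RMA method of Affymetrix Expression Console 1.2.1, which corrects background, normalizes arrays by quantiles and summarizes the probes of each set. The sources used here name no build or annotation version. It has 28879 probe sets, of which 18511 have 1 gene symbol in the platform annotation, 575 have several and 9793 are not listed. Entrez identifiers matched 18394 to RefSeq (GRCr8), used for names and gene order alone. Strain and replicate came from the sample titles.

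Probe sets with a mean at or above the 25th percentile (1.17) entered a linear model with strain as the only term (limma 3.58.1 under R 4.3.3, lmFit and eBayes), with two-sided p-values adjusted by Benjamini-Hochberg over all 21659; the fit was tested on simulated data. A gene of the lists with several probe sets was represented by the brightest on average. Arrays have no depth, and their number limits the precision.

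The members and lists were chosen with earlier results of these data known. The text names all members, up to 2 named and measured neighbours on each side, and all measured CAP genes. It also names the 4 genes of smallest unadjusted p in each of the lists of Pi16-positive fibroblasts, inhibitors and proteases. The 5 nearest profiles of Pi15 and of Pi16 are named as well. Cell type marker lists are given by their means or by the median difference of their genes. Mettl24 and Rxfp2 were added after their values were seen. Alternatives are given in the closing section.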

Additional observations from a re-analysis of the deposited data

How the results depend on the processing

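All 6 members kept the sign of their difference under each of 17 alternatives, but for many of these no other outcome was possible. The replicate block, a changed filter and the intensity trend leave the difference itself as it was. Leaving out or weighting arrays cannot turn the sign of a member whose strains do not overlap. Pi15, not called with all arrays as deposited, was called by limma after a further quantile normalization (-1.59, adjusted p = 0.0458), with array weights (-1.57, adjusted p = 0.0147) and when SHR replicate 1 and WKY replicate 3 were left out together (-1.62, adjusted p = 0.0499), and it was then the 1 member called. Under the other 14 its adjusted p ran from 0.0545 to 0.322, and without each array in turn its difference ran from -1.60 to -1.36 with 0 members called. The count of called probe sets, 15, was 65 with array weights, 115 without both of these arrays, 33 with the smooth muscle mean as a covariate, 3 with the replicate block and 2 to 5 without each array in turn, where fewer arrays enter; the cause of the others was not tested. The members without overlap numbered 3 with median centring and 4 or 5 without an array, a count of alternatives added after seeing the data. Fewer arrays make non-overlap easier to reach. The share over all probe sets was not counted under these alternatives, so nothing is read from these numbers. Array weights also took Glipr2 to -0.14 and Glipr1 to 0.23. The deviations of same-numbered arrays correlated at 0.35, -0.08 and 0.23. SHR replicates 1 and 3 correlated best with the WKY array of their own number, but SHR replicate 2 did so with WKY replicate 3 (0.17). Whether the numbers mark pairs is therefore not settled, and the main fit does not pair them. With the replicate block the limma adjusted p of Pi15 was 0.120 at the same difference of -1.52. The SE of Pi16 was 0.42 with the block and 0.61 without it, and Pi16 was called in neither fit. Averaging probe sets changes nothing for members, which have 1 each. Each member rests on 1 probe set without a detection call, so a strain difference in sequence under its probes was not tested.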
